A study of Mus musculus with 16 samples.

Results

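The autophagy machinery was followed in colonic epithelial cells that had or had not expressed the secretory transcription factor Atoh1. The genes were chosen by name as a list of 40, covering each step of autophagosome formation, out of 45513 genes in the deposited tables. The choice was made with earlier results of these data known. All 40 were present and all 40 passed the filter on low counts, so that none had to be left out of the 15841 genes tested. Cells came from the colon of 8 adult C57BL/6 mice carrying Atoh1(WT)CreERT2, an inducible Cre recombinase placed downstream of the Atoh1 coding sequence, together with a Rosa26 tdTom reporter. Every mouse had received tamoxifen, 1 mg per day on 3 consecutive days, and from every mouse live EpCAM+ tdTom+ cells and live EpCAM+ tdTom- cells were sorted, giving 8 libraries of each kind. EpCAM is an epithelial surface protein. There was no untreated group, and tdTom- cells of the same mice were the reference for all values. Because Cre was driven from the Atoh1 locus, the tdTom+ gate holds cells that expressed Atoh1 when tamoxifen was given and any descendants that kept the label, and the tdTom- gate holds all other epithelial cells, including secretory cells in which Cre did not act.

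Autophagy delivers cytoplasm, organelles and protein aggregates to the lysosome inside a membrane that grows around them. A kinase complex built on ULK1 or ULK2 starts the process, a class III phosphatidylinositol 3-kinase marks the membrane, and lipid is supplied through ATG2 and ATG9. A pair of ubiquitin-like conjugation reactions then attaches ATG8 proteins (the LC3 and GABARAP families) to the membrane, where they bind cargo receptors such as p62, the product of Sqstm1. In the colon, goblet cells secrete mucus and are known to depend on autophagy proteins for normal granule release. Messenger RNA levels, which are what was measured here, do not give the rate at which autophagosomes form or are degraded.

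Total counts per library ran from 16482530 to 24218367 in tdTom+ cells and from 18318172 to 45791503 in tdTom- cells. The tdTom- library of mouse 4 was the deepest, and the other 7 tdTom- libraries held at most 20668605 counts. The labels of the gates were checked against marker genes. All 10 goblet markers were higher in tdTom+ cells, and their summed level ran from 52287 to 107967 CPM (counts scaled to the library's total) in tdTom+ libraries against 2576 to 9107 CPM in tdTom- libraries. All 10 absorptive colonocyte markers were lower, summing to 985 to 1321 CPM against 8781 to 17731 CPM. Of 10 enteroendocrine markers 9 were lower, with sums of 291 to 772 CPM against 1397 to 4086 CPM, and of 10 proliferation markers 6 were lower, with sums of 584 to 919 CPM against 708 to 1237 CPM. Of 10 tuft markers 9 were tested and 7 were lower, with sums of 58.4 to 118 CPM against 110 to 184 CPM. Of 10 stem cell markers 9 were tested, 2 being higher and 5 lower, with sums of 754 to 973 CPM against 642 to 1034 CPM. All 5 genes listed as deep crypt secretory markers (Reg4, Kit, Dll1, Dll4 and Atoh1) were higher, with sums of 1989 to 4552 CPM against 117 to 288 CPM. Cre was driven from the Atoh1 locus, so the rise of Atoh1 is no check of the gate. Of 8 general epithelial markers 1 was higher and 7 were lower, with sums of 7154 to 8474 CPM against 10928 to 13659 CPM. Immune markers summed to 6.0 to 12.4 CPM in tdTom+ and 10.5 to 35.9 CPM in tdTom- libraries. Only 3 of these 10 had enough counts to be tested, of which 1 was lower, and Cd4 was at 0 in all libraries. Stromal and endothelial markers summed to 5.0 to 11.5 and 7.7 to 20.8 CPM. Only 2 of these 10 were tested, of which 1 was lower, and Lum was at 0 in all. With a block on mouse, 9 of 10 proliferation markers, 8 of the 9 tested tuft markers and 2 of the 3 tested immune markers were lower. Of the 9 tested stem cell markers, 3 were higher and 6 lower in that fit. The share of counts from mitochondrial genes was lower in the tdTom+ library of all 8 mice, at 2.23% to 6.92% against 3.74% to 9.97%. The gates therefore differed in the kinds of epithelial cell they held and in this share, and every difference given here moves with both. Their part in each result was not tested. In such bulk samples, fewer cells of a type and less RNA per cell cannot be told apart.

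Of the 40 autophagy genes, 14 were higher and 11 were lower in tdTom+ cells at an adjusted p under 0.01 (edgeR's quasi-likelihood test, Benjamini-Hochberg adjustment over all genes tested), and 15 did not pass. That test had no term for mouse, although both gates came from the same mice. With mouse as a block, 15 were higher and 11 lower. Calls and standard errors below are from the test without that term unless a block is named. In the conjugation machinery 6 of 7 genes rose and 1 fell, and the cargo receptors and the MiT/TFE transcription factors held falls and no rise. The initiation complex was divided, with Atg13 and Ulk2 higher and Ulk1, Rb1cc1 and Atg101 lower. Most of the changes were small. The largest were Atg9b, at 4.29-fold higher but with very few counts, and Atg4a, at 2.16-fold higher. Atg9b, 1 of the 14, passed the filter on low counts only through its tdTom+ libraries. In the deposited coordinates, on GRCm38, the genes with the largest changes were Atg13 (ENSMUSG00000027244, chr2:91674618-91710576, minus strand), Atg9b (ENSMUSG00000038295, chr5:24384181-24392143, minus strand), Atg4a (ENSMUSG00000079418, chrX:140956907-141164270, plus strand), Atg16l2 (ENSMUSG00000047767, chr7:101289392-101302251, minus strand), Optn (ENSMUSG00000026672, chr2:5020642-5064051, minus strand) and Tfeb (ENSMUSG00000023990, chr17:47737030-47792419, plus strand).

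These counts have to be read against a comparison in which much of the transcriptome moved. Across all 15841 genes, 25.5% were higher, 25.5% were lower and 51% changed in either direction, against 62.5% of the autophagy genes. Once mouse was added to the model as a block, the background was 57.2%, and 26 of the 40 passed, the addition being Atg2b. The autophagy genes were counted more deeply than the average gene, with a median level of 38.4 CPM against 19.8 CPM over all genes tested, and the effect of this on the share that passed was not tested. Their changes were of modest size: the median absolute log2 fold change was 0.27, against 0.33 over all genes, and 2 of 40 exceeded 1 on the log2 scale, against 16.8% of all genes. The median signed log2 fold change was 0.12 for the autophagy genes and 0.004 for all genes. The levels of the 8 tdTom+ and the 8 tdTom- libraries did not overlap for 13 of the 40, Atg9b among them, close to the 30.5% of all genes for which this held.

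**Figure D1:**
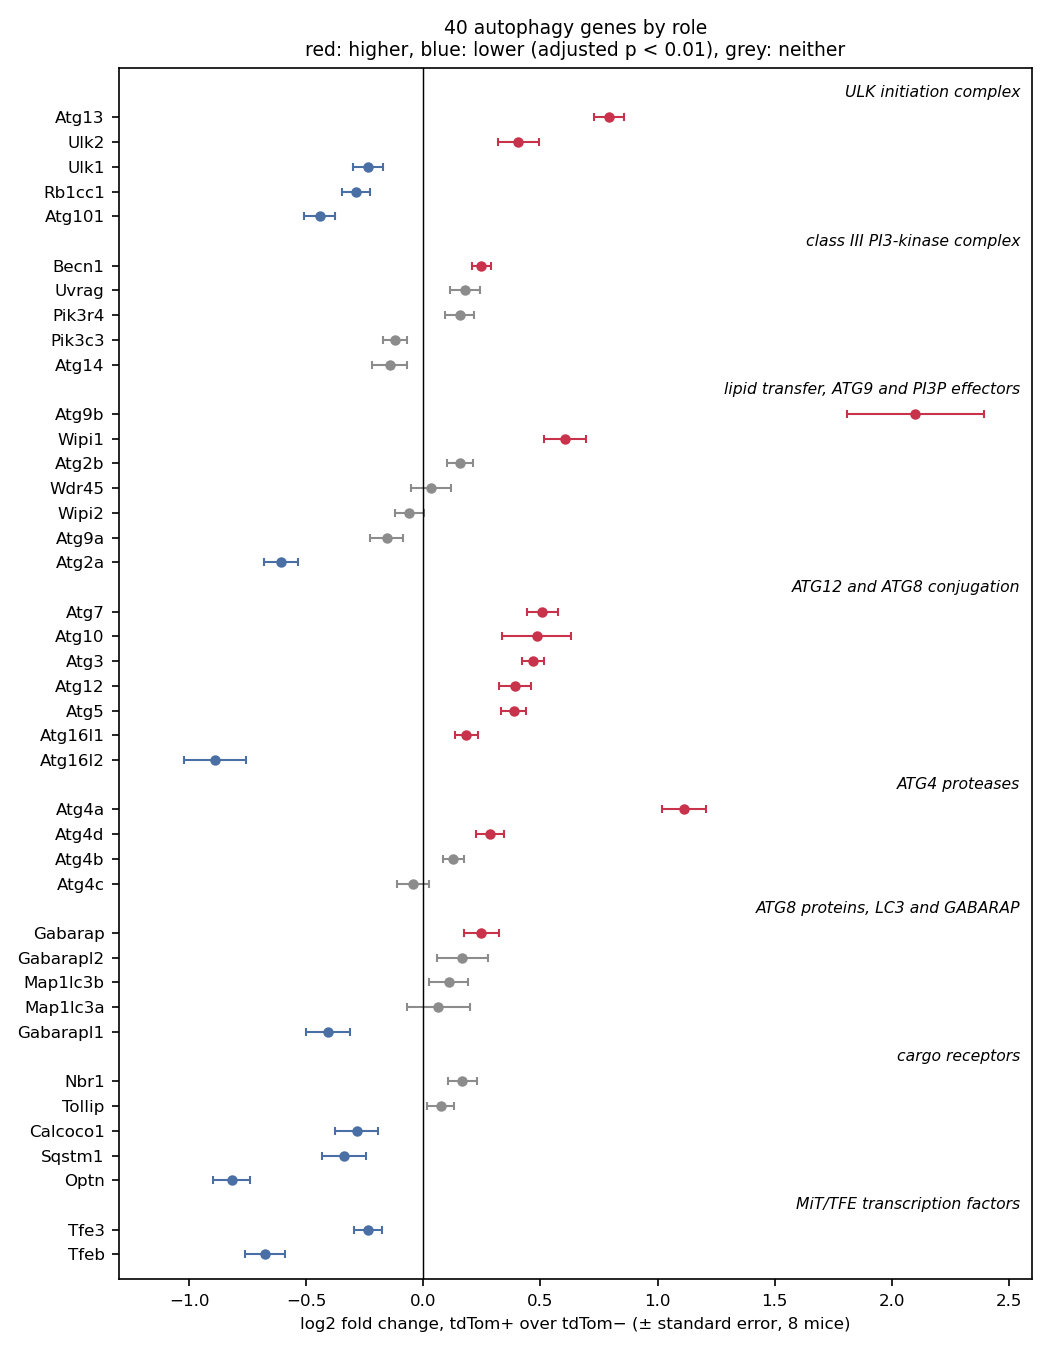
Log2 fold change of each of the 40 autophagy genes in tdTom+ over tdTom- cells (horizontal axis; bars are standard errors, 8 mice), grouped by role. Red genes were higher and blue genes lower at an adjusted p under 0.01, and grey genes passed in neither direction. In the conjugation group 6 of 7 genes lie to the right of 0, while 3 of the 5 cargo receptors and both transcription factors are blue.

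Promoter sequence is shown for 4 genes to give the surroundings of hexamers that basic helix-loop-helix factors read. CACGTG is the core of the element recognised by TFEB, TFE3 and their relatives, TCACGTGA is a longer form of the same element that contains it, and CAGCTG is an E-box of the kind bound by ATOH1 with its E protein partners. Each is the same on both strands. Windows of 250 bases before to 50 bases after the start were available from RefSeq (GRCm38.p6) for 34 of the 40 genes. The stretches printed here end at the RefSeq start or at the first annotated exon, and capitals mark the searched letters. Atg3 (chr16:45158579-45158784, plus strand) and Atg5 (chr10:44268089-44268338, plus strand), both of the conjugation machinery, are shown for CACGTG. Atg13 (chr2:91710593-91710842, minus strand) and Atg9b (chr5:24392144-24392393, minus strand), which had the largest rises in their groups, are shown for CAGCTG.
Atg3: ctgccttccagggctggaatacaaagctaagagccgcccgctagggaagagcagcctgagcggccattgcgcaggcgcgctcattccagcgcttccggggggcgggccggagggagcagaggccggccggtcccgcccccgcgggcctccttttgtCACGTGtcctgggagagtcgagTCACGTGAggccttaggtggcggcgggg
Atg5: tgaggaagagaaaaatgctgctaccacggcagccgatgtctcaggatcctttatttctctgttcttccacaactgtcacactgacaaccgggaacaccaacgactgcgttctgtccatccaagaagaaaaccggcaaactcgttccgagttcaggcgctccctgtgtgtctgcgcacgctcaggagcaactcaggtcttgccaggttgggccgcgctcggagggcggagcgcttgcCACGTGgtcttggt
Atg13: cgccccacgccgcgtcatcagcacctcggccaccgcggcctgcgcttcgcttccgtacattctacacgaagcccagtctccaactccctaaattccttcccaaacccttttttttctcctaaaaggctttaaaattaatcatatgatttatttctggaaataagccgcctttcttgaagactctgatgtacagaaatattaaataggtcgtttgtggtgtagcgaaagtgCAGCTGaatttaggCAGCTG
Atg9b: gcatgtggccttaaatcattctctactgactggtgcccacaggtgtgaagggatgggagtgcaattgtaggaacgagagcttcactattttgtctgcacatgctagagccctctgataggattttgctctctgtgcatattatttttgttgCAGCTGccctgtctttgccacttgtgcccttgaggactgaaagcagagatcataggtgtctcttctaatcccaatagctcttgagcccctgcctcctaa

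CACGTG lay in the windows of 4 of the 34 genes, while 7.15% of all 32851 windows in the table held it. In Atg3 it began 94 and 71 bases before the start, the second copy as part of TCACGTGA, which 0.974% of all windows held. In Atg5 it began 14 bases before the start and in Atg14 at the last base before it. The fourth was Atg7, with the letters 132 bases before a RefSeq start that lies within the gene as GENCODE draws it, so that this window is not upstream of the whole gene. Of these 4 genes, Atg3, Atg5 and Atg7 were higher in tdTom+ cells and Atg14 passed in neither direction. CAGCTG was found for 8 of the 34 genes and in 16.3% of all windows. It occurred at 20 and 6 bases before the start of Atg13 and at 99 bases before that of Atg9b. The remaining ones were Atg4a, Atg4c, Map1lc3b, Sqstm1, Nbr1 and Tollip, of which Atg4a was higher, Sqstm1 was lower and the other four passed in neither direction. A match describes the letters in a window and does not show that a factor binds there.

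The initiation complex consists of a kinase, ULK1 or ULK2, with the adaptor ATG13, its partner ATG101 and the scaffold FIP200, encoded by Rb1cc1. All 5 genes passed, 2 higher and 3 lower. Atg13 ran from 67.8 through a median of 79.0 to 88.6 CPM in the tdTom+ libraries and from 42.4 through 44.2 to 52.6 CPM in the tdTom- libraries. The ranges did not overlap, and the gene was higher in 8 of 8 mice by 0.79 ± 0.06 on the log2 scale (standard error; adjusted p = 7.8e-10). Ulk2 was also higher, with 18.9, 24.6 and 27.7 CPM (lowest, median and highest) against 14.4, 18.01 and 22.0 CPM. These ranges overlapped, and mouse 2 went the other way, so that the difference of 0.41 ± 0.09 (adjusted p = 0.000407) was seen in 7 of 8 mice.

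The 3 genes of the complex that were lower changed less than Atg13. Atg101 stood at 20.4, 25.5 and 29.2 CPM in tdTom+ cells and at 30.8, 33.9 and 38.7 CPM in tdTom- cells, again without overlap, a log2 fold change of -0.44 ± 0.07 (adjusted p = 7.17e-06). ATG101 stabilises ATG13, so the partners of one subcomplex moved in opposite directions at the level of mRNA. Rb1cc1 stood at 41.5, 45.3 and 51.7 CPM against 51.4, 56.1 and 63.9 CPM, a log2 fold change of -0.29 ± 0.06 (adjusted p = 0.000355). Ulk1 stood at 42.2, 49.4 and 58.0 CPM against 51.9, 58.6 and 66.4 CPM, a log2 fold change of -0.24 ± 0.06 (adjusted p = 0.00336). Both were lower in 8 of 8 mice although the ranges of the gates overlapped. The Ulk1 call was lost when mouse 3 or mouse 5 was left out (adjusted p = 0.0113 in each case), and a block on mouse gave 0.000696.

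The class III PI3-kinase complex was the least changed, with 1 of 5 genes past the threshold. Becn1, which encodes the regulatory subunit Beclin 1, stood at 118, 122 and 127.6 CPM in tdTom+ cells and at 97.5, 103 and 109 CPM in tdTom- cells. The ranges did not overlap in spite of the small difference of 0.25 ± 0.04 on the log2 scale (adjusted p = 1.72e-05). Replicates were tight, with a coefficient of variation of 2.59% in tdTom+ cells. The catalytic subunit Pik3c3 had a log2 fold change of -0.12 ± 0.05 (adjusted p = 0.0478), its regulatory subunit Pik3r4 of 0.16 ± 0.06 (0.0316), Uvrag of 0.18 ± 0.06 (0.0201) and Atg14 of -0.15 ± 0.08 (0.101). ATG14 directs the kinase to autophagosome formation and UVRAG to endosomal traffic.

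Lipid transfer proteins, ATG9 scramblases and the WIPI proteins that bind phosphatidylinositol 3-phosphate made up 7 genes, of which 2 were higher and 1 was lower. Atg2a, a lipid transfer protein, stood at 55.6, 63.6 and 66.5 CPM in tdTom+ cells and at 72.6, 93.7 and 108 CPM in tdTom- cells. The gates did not overlap, and the log2 fold change was -0.61 ± 0.07 (adjusted p = 3.63e-07). Its paralog Atg2b had a log2 fold change of 0.16 ± 0.06, which did not pass (adjusted p = 0.0181) unless mouse entered the model as a block (adjusted p = 0.00658). Wipi1 stood at 27.4, 34.9 and 43.7 CPM against 19.9, 21.8 and 29.0 CPM, higher by 0.61 ± 0.09 on the log2 scale (adjusted p = 6.18e-06) and in 8 of 8 mice. For Wipi1 the lowest tdTom+ library lay below the highest tdTom- library, which came from another mouse. Wipi2 (-0.06 ± 0.06) and Wdr45 (0.03 ± 0.08) were near 0.

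Atg9b carried the largest log2 fold change of the 40, at 2.10 ± 0.29 (adjusted p = 2.87e-06), and the lowest counts. Its tdTom- libraries held only 2 to 25 reads each and its tdTom+ libraries 22 to 62. Atg9b passed the filter on low counts only through its tdTom+ libraries, so its p and its lack of overlap are given as description only. The levels were 1.19, 1.72 and 2.45 CPM in tdTom+ cells and 0.105, 0.352 and 0.805 CPM in tdTom- cells, without overlap. The size of the change varied among mice, from 1.16 to 4.44 on the log2 scale. Atg9a, the widely expressed paralog, stood at a mean of 37.4 ± 4.16 CPM (SD, n = 8) in tdTom+ cells and 41.8 ± 3.33 CPM in tdTom- cells and did not pass (adjusted p = 0.0576). Part of Atg9a overlaps the annotated transcript Gm29253 on the same strand, and 29.7% of its 50-base windows are also in that gene, as 16.9% of those of Wdr45 are in Gm45208, so that reads there may not have been credited to either.

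Of the 7 genes of the conjugation machinery, 6 were higher and 1 was lower. ATG7 is the activating enzyme of both reactions, ATG10 and ATG3 are the conjugating enzymes for ATG12 and for ATG8 proteins, and ATG12, ATG5 and ATG16L1 form the complex that places ATG8 on lipid. All 6 of these genes were higher in 8 of 8 mice. Atg7 stood at 33.0, 35.6 and 39.7 CPM in tdTom+ cells and 21.7, 25.3 and 28.7 CPM in tdTom- cells, a log2 fold change of 0.51 ± 0.07 (adjusted p = 1.23e-06). Atg3 stood at 37.6, 40.2 and 43.6 CPM against 27.4, 29.0 and 31.2 CPM, a log2 fold change of 0.47 ± 0.05 (adjusted p = 2.82e-08). Atg5 stood at 41.9, 45.2 and 52.8 CPM against 32.5, 35.8 and 38.6 CPM, a log2 fold change of 0.38 ± 0.05 (adjusted p = 2.45e-06). In each of these 3 the gates did not overlap, and the log2 ratios of single mice stayed within 0.28 to 0.63.

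Atg12, the first ubiquitin-like protein, stood at 58.1, 63.0 and 80.1 CPM against 44.2, 48.6 and 56.2 CPM and was higher by 0.39 ± 0.07 on the log2 scale (adjusted p = 5.49e-05), also without overlap. Atg10 was scarce, at 5.39, 6.59 and 9.65 CPM against 3.78, 5.30 and 6.78 CPM. Its log2 fold change of 0.48 ± 0.15 was of the same order as that of Atg7, but the spread among mice was wider, and its call (adjusted p = 0.00758) was lost when any one of mice 1, 2, 5, 6, 7 or 8 was left out (adjusted p from 0.0125 to 0.0184). The block on mouse gave 0.000135. Atg16l1 rose least, from a mean of 28.1 ± 1.35 CPM to 31.9 ± 1.52 CPM (SD, n = 8), by 0.18 ± 0.05 (adjusted p = 0.00303), and lost its call without mouse 7 (adjusted p = 0.0105), while a block on mouse gave 0.0026. The exception was its paralog Atg16l2, which stood at 3.44, 5.31 and 6.79 CPM in tdTom+ cells and 8.44, 8.88 and 13.8 CPM in tdTom- cells. Atg16l2 was lower in 8 of 8 mice without overlap, by a log2 fold change of -0.89 ± 0.13 (adjusted p = 6.97e-06), the largest fall of the 40 genes.

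**Figure D2:**
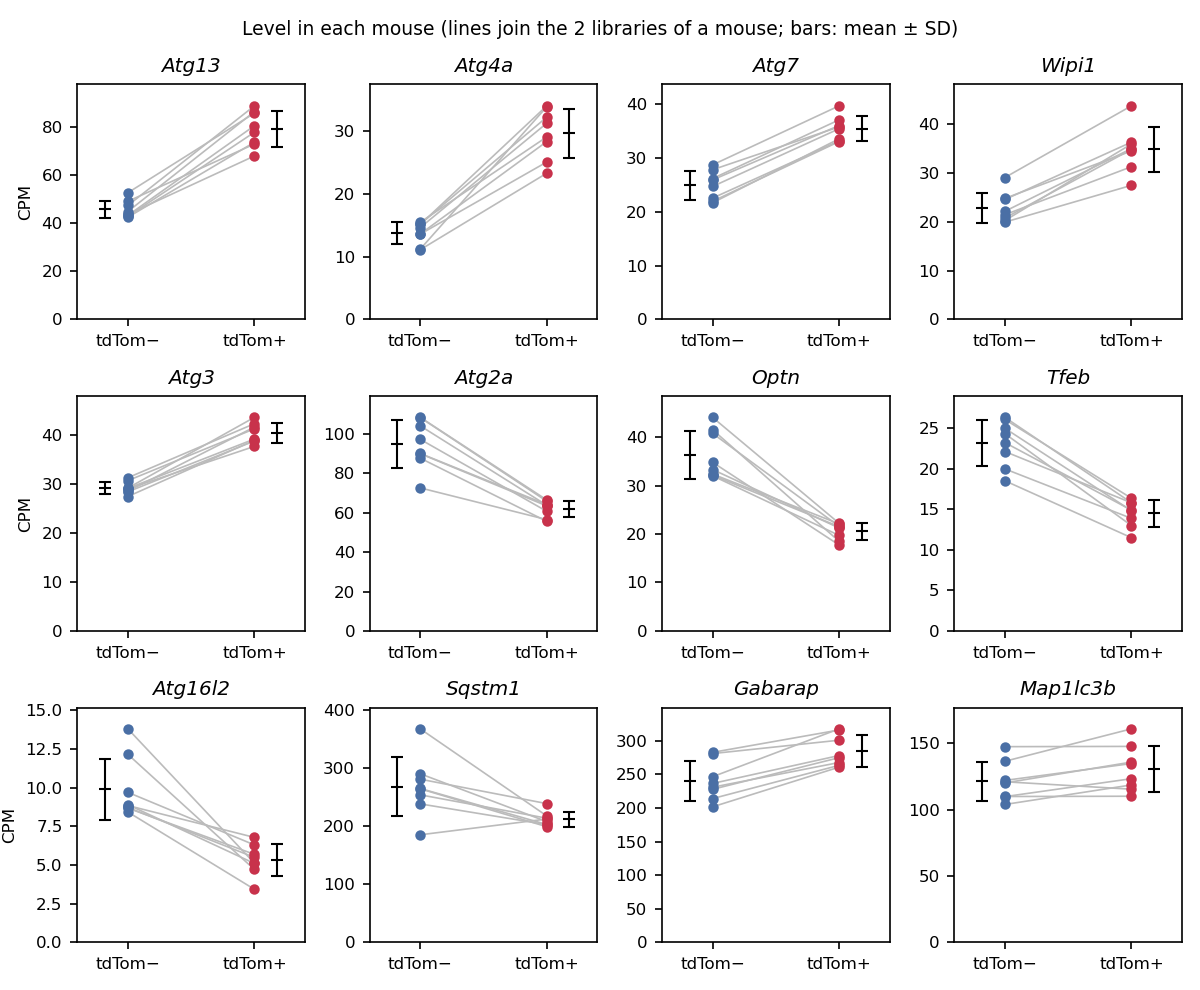
Level of 12 of the autophagy genes in CPM (vertical axis, from 0) in the tdTom- and tdTom+ library of each of the 8 mice. Grey lines join the libraries of a mouse, and bars beside the points give the mean and SD. Lines rise in all 8 mice for Atg13, Atg4a, Atg7, Wipi1, Atg3 and Gabarap and fall in all 8 for Atg2a, Optn, Tfeb and Atg16l2, while Sqstm1 falls in 7.

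ATG4 proteases cut the ATG8 precursors before conjugation and release ATG8 from membranes afterwards. Of 4 genes, 2 were higher. Atg4a stood at 23.2, 30.1 and 34.0 CPM in tdTom+ cells and 11.1, 14.1 and 15.4 CPM in tdTom- cells, a log2 fold change of 1.11 ± 0.09 (adjusted p = 1.6e-09) seen in 8 of 8 mice without overlap. However, 51.2% of the 50-base windows of Atg4a transcripts are also found in its processed copy Atg4a-ps on chromosome 3, and a read that matches both could be credited to either. Atg4a-ps was itself counted at 6.55 ± 0.95 CPM against 3.44 ± 0.49 CPM. With the counts of both summed in each library, the log2 ratio was 1.07 ± 0.18 (SD over 8 mice), higher in 8 of 8. The division of reads between the gene and its copy therefore moved the value by little. Atg4d was higher by 0.28 ± 0.06 (adjusted p = 0.000371), at 79.5, 87.6 and 103 CPM against 64.0, 74.0 and 83.6 CPM. Atg4b (0.13 ± 0.05, adjusted p = 0.0177) and Atg4c (-0.05 ± 0.07, adjusted p = 0.579) did not pass.

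The ATG8 proteins themselves changed little, with 1 of 5 genes higher and 1 lower. Gabarap stood at 261, 277 and 318 CPM in tdTom+ cells and 202, 234 and 283 CPM in tdTom- cells. It was higher in 8 of 8 mice, but the gates overlapped and the log2 fold change was 0.25 ± 0.07 (adjusted p = 0.00699). This call was lost when mouse 1, 5, 6, 7 or 8 was left out (adjusted p from 0.0148 to 0.0229) and was firmer with a block on mouse (adjusted p = 0.000155). Gabarapl1 went the other way, at 30.4, 36.5 and 45.5 CPM against 41.5, 45.4 and 63.5 CPM, lower in 8 of 8 mice by a log2 fold change of -0.41 ± 0.09 (adjusted p = 0.000856). Both genes moved the same way in every mouse while the ranges of the gates overlapped.

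The LC3 genes, whose products are the most used markers of autophagosomes, did not pass. Map1lc3b stood at 110, 129 and 161 CPM in tdTom+ cells and 104, 121 and 147 CPM in tdTom- cells, a log2 fold change of 0.11 ± 0.08 (adjusted p = 0.269). Map1lc3a had a log2 fold change of 0.06 ± 0.13 (adjusted p = 0.698) and Gabarapl2 of 0.17 ± 0.11 (adjusted p = 0.198). For all 3 the difference was smaller than the spread between libraries, and none passed with a block on mouse either. The copies Gm3724 and Gm6055 share 8.81% of the windows of Gabarapl2 and 3.67% of those of Map1lc3b.

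The cargo receptors link ubiquitinated proteins, bacteria or organelles to ATG8. Of 5, none was higher and 3 were lower. Optn, the gene of optineurin, stood at 17.7, 21.4 and 22.2 CPM in tdTom+ cells and 32.0, 34.0 and 44.1 CPM in tdTom- cells. The gates did not overlap, and the log2 fold change was -0.82 ± 0.08 (adjusted p = 1.48e-08), lower in 8 of 8 mice. Sqstm1 stood at 199, 210 and 239 CPM against 185, 264 and 367 CPM, a log2 fold change of -0.34 ± 0.10 (adjusted p = 0.00422). It was lower in 7 of 8 mice, mouse 4 being the exception. The tdTom- libraries varied more in Sqstm1 than the tdTom+ libraries, with a coefficient of variation of 19.2% against 5.94%, and the call was lost when mouse 2, 3, 5, 7 or 8 was left out (adjusted p from 0.0112 to 0.0159). A block on mouse gave 0.00122.

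Calcoco1, which has been described as a receptor for the endoplasmic reticulum and Golgi, was just past the threshold, with a log2 fold change of -0.29 ± 0.09 (adjusted p = 0.00999), at 17.2, 20.2 and 25.1 CPM against 19.5, 25.3 and 29.6 CPM. Its call was lost under another scaling (adjusted p = 0.0103), without the filter on low counts (0.0164) and without mouse 1, 3, 4, 5, 7 or 8 (from 0.0157 to 0.0384). A block on mouse gave 0.000765, and the gene was lower in 7 of 8 mice. Nbr1, which acts with p62 on protein aggregates, stood at 178, 215 and 229 CPM against 171, 190 and 213 CPM and did not pass (0.17 ± 0.06, adjusted p = 0.0271). Tollip did not pass either (0.07 ± 0.06, adjusted p = 0.278).

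TFEB and TFE3 are transcription factors that move to the nucleus when mTORC1 is inactive and switch on lysosomal and autophagy genes. Both were lower in tdTom+ cells at the level of mRNA. Tfeb stood at 11.5, 14.9 and 16.3 CPM against 18.5, 23.7 and 26.3 CPM, without overlap, a log2 fold change of -0.68 ± 0.09 (adjusted p = 7.63e-07) in 8 of 8 mice. Tfe3 stood at 23.1, 27.6 and 30.7 CPM against 29.6, 31.9 and 33.9 CPM, a log2 fold change of -0.24 ± 0.06 (adjusted p = 0.00167) in 7 of 8 mice, mouse 4 again being the exception. Their regulation is known to act mostly on where the protein is in the cell, which counts of mRNA do not show.

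Levels of different genes were compared only per length, as CPM per kb of annotated exon. Gabarap was the highest of the 40 in both gates, at 155 ± 12.6 CPM per kb in tdTom+ and 130 ± 15.8 CPM per kb in tdTom- cells (SD, n = 8), and Sqstm1 was next at 63.1 ± 3.75 and 79.8 ± 15.3 CPM per kb. Below them in tdTom+ cells came Gabarapl2 at 37.2 ± 7.41, Atg4d at 35.1 ± 2.92 and Nbr1 at 30.5 ± 2.49 CPM per kb, each of which lay within the summed SDs of its neighbour. The lowest were Atg9b at 0.463 ± 0.114, Atg16l2 at 1.38 ± 0.263 and Tfeb at 2.56 ± 0.289 CPM per kb. Exon length here is the union of all annotated exons, so a gene with long exons that are seldom used is placed too low. Within the ATG8 family, Gabarap made up 60.2% ± 2.22 of the summed length-scaled level in tdTom+ cells and 55.8% ± 1.15 in tdTom- cells, and Gabarapl1 8.08% ± 0.564 and 11.8% ± 0.743. The share of Gabarapl1 was 7.35% to 8.96% in tdTom+ libraries and 10.7% to 12.7% in tdTom- libraries, without overlap.

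**Figure D3:**
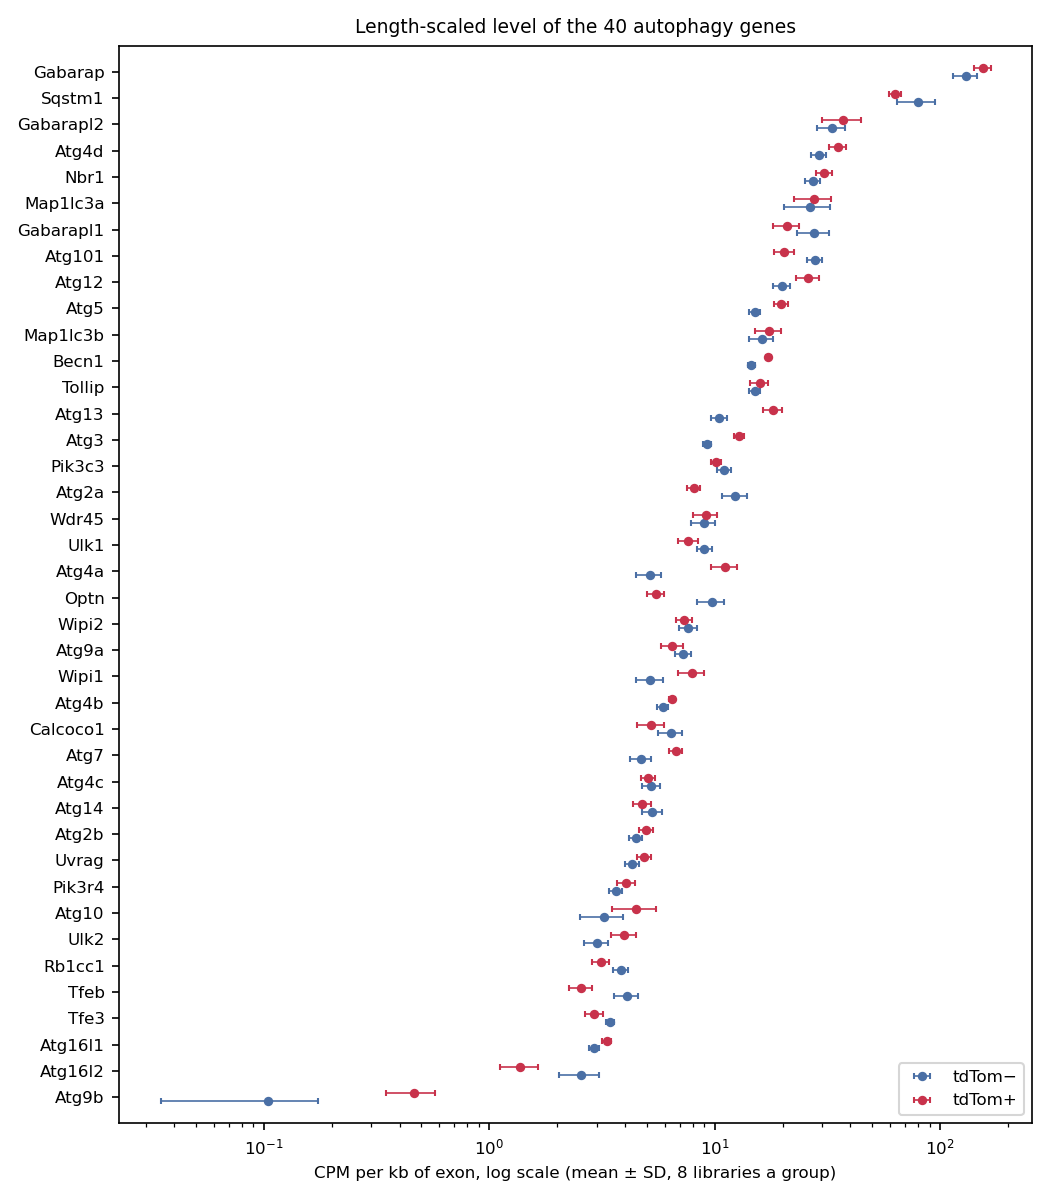
Level of the 40 autophagy genes in CPM per kb of exon (horizontal axis, log scale; points are means and bars SD over 8 libraries), in tdTom+ (red) and tdTom- (blue) cells. Gabarap and Sqstm1 lie above the other genes, and Atg9b lies lowest, at 0.463 and 0.105 CPM per kb.

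Several of these genes can be set in pairs of paralogs or of genes with related roles. Whether the members of a pair can replace each other was not tested. The balance within a pair can be measured without any scaling of libraries, because both genes are read in the same library. For each mouse the log2 ratio of the pair in tdTom- cells was subtracted from that in tdTom+ cells, and the 8 differences were tested with an exact two-sided permutation of their signs. Of 12 pairs considered, 11 were tested, Atg9a with Atg9b being left out for its low counts. The balance moved in the same direction in 8 of 8 mice for 9 of the 11 pairs, each with an exact p = 0.00781, the smallest that 8 mice allow, and 0.00955 after adjustment over the 11 pairs. The pairs were chosen with single-gene results of these data known, and each repeats the 2 genes' own changes as a ratio.

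The largest shift was that of Atg16l1 over Atg16l2, by 1.08 ± 0.35 on the log2 scale (SD, n = 8), which took Atg16l1 from 53.7% ± 4.12 to 70.9% ± 3.77 of the pair's length-scaled level. Atg4a over Atg4b shifted by 0.98 ± 0.26, from 46.4% ± 3.24 to 63.0% ± 3.39 of the pair, and by 0.94 ± 0.23 when the reads of Atg4a-ps were added to Atg4a. By mean share, Atg4a thus went from the lesser to the greater member of its pair, while Atg16l1 led in both gates. This rank rests on union exon length, 2661 bases for Atg4a and 8278 for Atg4b. Without length scaling, Atg4b was the higher in both gates, at a mean of 53.4 against 29.6 CPM in tdTom+ and 48.9 against 13.7 CPM in tdTom- cells. Shares of the other pairs have the same limit, while the shift of a ratio does not depend on length. Wipi1 over Wipi2 shifted by 0.67 ± 0.19, from 40.4% ± 3.87 to 51.8% ± 2.67 of the pair, and Gabarap over Gabarapl1 by 0.66 ± 0.16.

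Other pairs shifted toward the second member. Atg2a over Atg2b changed by -0.76 ± 0.14, so that Atg2a went from 73.2% ± 3.24 to 61.9% ± 2.99 of the pair. Ulk1 over Ulk2 changed by -0.64 ± 0.27 and kept Ulk1 as the more abundant kinase, at 75.0% ± 1.88 in tdTom- and 65.8% ± 2.18 in tdTom+ cells. Sqstm1 over Nbr1 changed by -0.48 ± 0.15, Tfeb over Tfe3 by -0.43 ± 0.28 (from 54.1% ± 3.84 to 46.7% ± 3.74 of the pair) and Atg4c over Atg4d by -0.33 ± 0.18, with 1 mouse close to 0 in that last pair. Gabarap over Gabarapl2 (0.10 ± 0.19, p = 0.219) and Map1lc3a over Map1lc3b (-0.03 ± 0.24, p = 0.703) did not pass the exact permutation test, and single mice went both ways, from -0.23 to 0.31 and from -0.37 to 0.44.

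**Figure D4:**
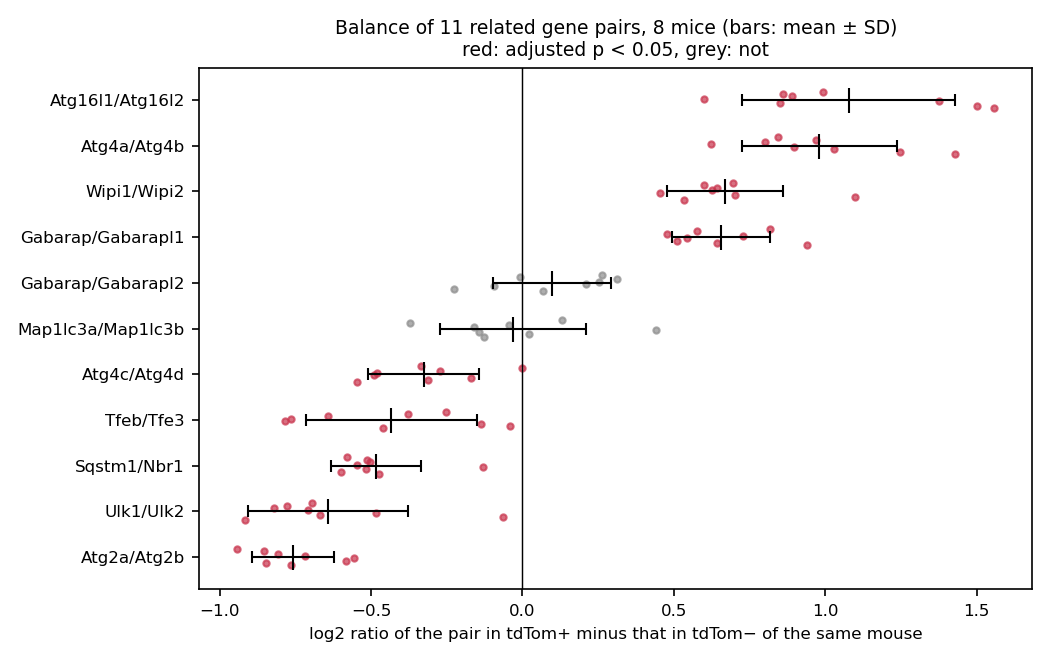
Change in the log2 ratio of 11 related gene pairs between tdTom+ and tdTom- cells of the same mouse (horizontal axis). Each point is 1 of 8 mice, and bars give the mean and SD. Red pairs had an adjusted p under 0.05; all 8 points of each lie on one side of 0, although 1 point of Atg4c/Atg4d is close to it, while the 2 grey pairs straddle 0.

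The same comparison was made for 108 further genes of the pathway and of the nutrient sensors upstream of it, on lists drawn up by role. These lists were chosen with earlier results of these data known, so their shares are description only. Of the 103 that were tested, 47 were higher and 24 lower, 68.9% in all beside the background of 51%, and their median log2 fold change was 0.15. Each list below is to be read beside all genes, of which 25.5% were higher and 25.5% lower. The gates did not overlap for 30.5% of all genes. Among 10 tested regulators of the ULK and PI3-kinase complexes, 7 were higher and 2 lower. The largest changes were Trp53inp1, whose product binds ATG8 proteins, from 43.3 ± 7.38 to 144 ± 26.4 CPM (1.74 ± 0.12, adjusted p = 5.59e-11), and Bcl2, whose product can hold Beclin 1 inactive, from 13.9 ± 1.32 to 34.4 ± 3.46 CPM (1.31 ± 0.07, adjusted p = 2.44e-12). Both were higher in 8 of 8 mice without overlap. These exceeded any change among the 5 core members of the PI3-kinase complex. Bcl2l1, a relative of Bcl2 on the same list, went the other way and was 1 of the 2 that were lower.

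At the isolation membrane and at fusion with the lysosome, 4 of 9 and 5 of 14 genes were higher, and 2 and 4 were lower. In all, 66.7% and 64.3% of these lists passed, beside 51% of all genes. Tecpr1 rose from 39.95 ± 3.22 to 104 ± 10.5 CPM (1.38 ± 0.07, adjusted p = 2.66e-13) and Epg5, a tether of autophagosomes and lysosomes, by 0.68 ± 0.07 (adjusted p = 2.81e-08). Stx17, the SNARE on the completed autophagosome, rose from 29.4 ± 2.38 to 106 ± 9.48 CPM, by 1.85 ± 0.07 (adjusted p = 2.87e-15), and Tecpr2 by 0.93 ± 0.07 (adjusted p = 3.45e-10). All 4 were higher in 8 of 8 mice without overlap, and Stx17 exceeded every one of the 40 autophagy genes but Atg9b in log2 fold change.

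Receptors were also grouped by cargo. Of 10 ER-phagy receptors and partners, which take parts of the endoplasmic reticulum to the lysosome, 6 were higher and 1 was lower. Retreg1 rose from 99.2 ± 11.3 to 252 ± 12.3 CPM (1.35 ± 0.07, adjusted p = 4.17e-13) and Cdk5rap3 from 47.0 ± 2.65 to 102 ± 7.53 CPM (1.12 ± 0.05, adjusted p = 2.22e-13). Of 11 genes of mitophagy, 3 were higher and 6 lower. The share that passed was 70.0% for ER-phagy and 81.8% for mitophagy, beside 51% of all genes. Bnip3, a mitochondrial receptor, fell from 18.9 ± 4.08 to 10.3 ± 2.38 CPM (-0.87 ± 0.15, adjusted p = 3.65e-05). Of 6 further cargo receptors and kinases tested, Bag3 (0.67 ± 0.06, adjusted p = 3.34e-09) had the larger of 2 rises and Tbk1, the kinase that phosphorylates optineurin, was the 1 that fell (-0.41 ± 0.06, adjusted p = 1.16e-05). The difference between these lists was not tested.

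Among the nutrient sensors, 11 of 21 genes of the mTORC1 branch were higher and 1 was lower, 57.1% in all beside 51% of all genes. Flcn, the gene of folliculin, rose from 25.6 ± 3.56 to 43.8 ± 4.72 CPM (0.78 ± 0.09, adjusted p = 9.67e-08), and the single fall was in Rragd, a scarce Rag GTPase at 0.674 ± 0.262 against 1.24 ± 0.288 CPM (-0.89 ± 0.22, adjusted p = 0.00186). A list of 15 further genes held AMPK subunits, stress genes and amino acid sensors, and of these 6 were higher and 4 lower. Its largest changes were Castor1, an arginine sensor with few counts and not a part of AMPK, at 3.01 ± 0.58 against 0.955 ± 0.405 CPM (1.61 ± 0.22, adjusted p = 1.59e-06), and Atf4, at 296 ± 28.8 against 164 ± 21.7 CPM (0.86 ± 0.08, adjusted p = 1.06e-08). Of 7 tested transcription factors beside Tfeb and Tfe3, 3 were higher and 3 lower. Mitf, a relative of TFEB, was low in both gates but higher in tdTom+ cells, at 3.51 ± 0.70 against 0.752 ± 0.304 CPM (2.27 ± 0.21, adjusted p = 1.03e-08), which is the opposite direction to Tfeb and Tfe3. Mitf, Castor1 and Rragd were scarce in the gate where each was lower. They may have passed the filter on low counts only through the other gate, so their p is given as description only. Xbp1, a factor of the unfolded protein response, rose from 129 ± 12.0 to 449 ± 29.3 CPM (1.80 ± 0.07, adjusted p = 5.64e-15).

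**Figure D5:**
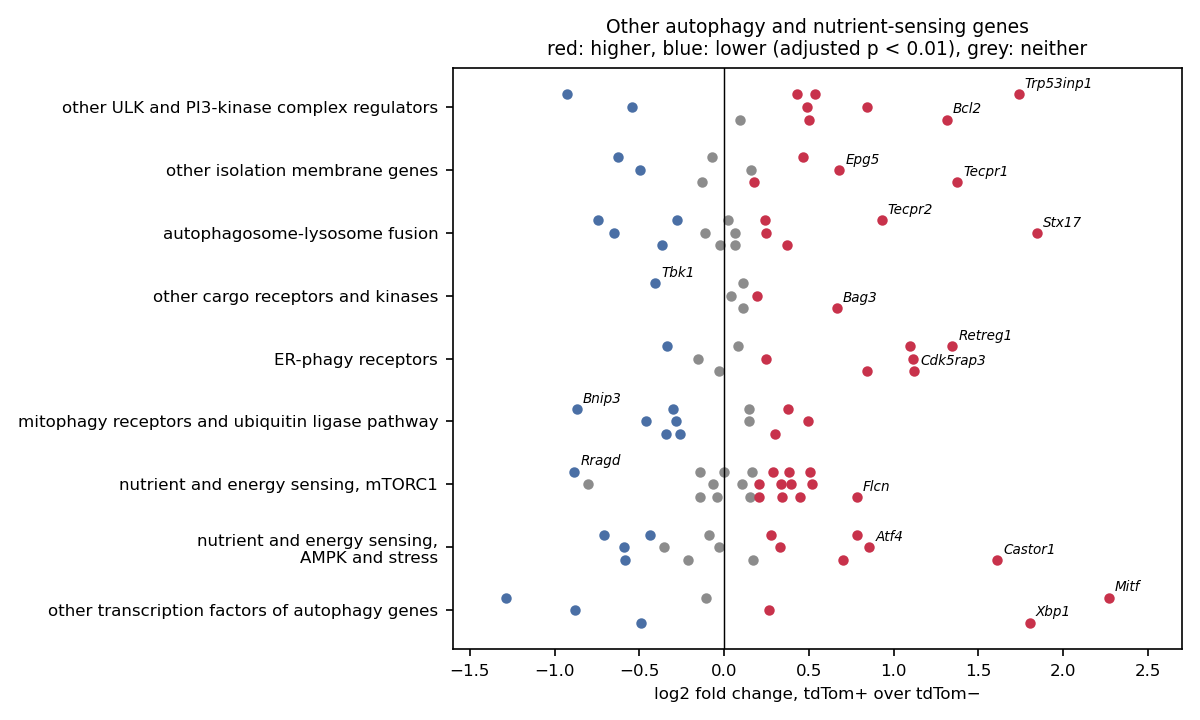
Log2 fold change in tdTom+ over tdTom- cells (horizontal axis) of 103 further pathway and nutrient-sensing genes, each a point in the row of its list. Red points were higher and blue points lower at an adjusted p under 0.01, and grey points passed in neither direction. Of these 103, the genes given with values in the paragraphs above carry their symbols, and those named only under Other observations do not. Stx17, Xbp1, Trp53inp1 and Mitf lie farthest to the right and most ER-phagy points lie to the right of 0.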

How the data were processed

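RNA of sorted EpCAM+ cells was sequenced from stranded mRNA libraries (TruSeq) as single-end reads. The authors aligned the reads to GRCm38 with TopHat2 (2.1.1 in the submitters' processing notes) and deposited raw counts per gene. Per the file headers, featureCounts 1.5.0-p1 counted primary alignments on exons on the reverse strand, without normalization; the notes list Subread 1.5.2. A read that matches several places is then counted at its primary one only. Gene symbols came from GENCODE M21 for 44585 of 45513 identifiers.

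Counts were analysed by the quasi-likelihood test of edgeR 4.0.16 (R 4.3.3; glmQLFit and glmQLFTest without a mouse term, after filterByExpr and TMM), with a Benjamini-Hochberg adjusted p under 0.01 over all genes. The standard error of a log2 fold change is its size over the root of F. CPM values use TMM-scaled library sizes. Gene pairs were compared by exact sign permutation in Python 3.11.15, a pair needing at least 10 counts of both genes in every library. Alternatives were the mouse as a block, DESeq2 1.42.0, RLE and upper-quartile scaling, no filter, at least 10 counts in every library, an adjusted p under 0.05 and each mouse left out in turn. Windows of 50 bases of the GENCODE transcripts were compared to find sequence shared with other genes. The fit was tested on simulated counts with 200 changed genes among 15728, of which 197 were recovered with 2 false calls. In the data 8074 of 15841 genes were called, so the simulation does not test the scaling when that many genes change. Recovery was not split by size of change. The simulation therefore gives no rate for the 16 called autophagy genes that changed by less than 0.5 on the log2 scale.

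Same-numbered libraries are from the same mouse by the study's design. Their deviations from the group means correlated by 0.223 to 0.408 within mice and by at most 0.168 between mice.

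The members, lists and pairs were chosen with earlier results of these data known. Values are given for members past the threshold with the 10 largest changes in each direction, members of shifted pairs and the 2 highest per length, and of each other list for at most the 2 largest changes past the threshold; other members are given more briefly. A gene of the mitophagy list that this rule names is not reported here. Small intestinal samples were not analysed here.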

Additional observations from a re-analysis of the deposited data

Results flagged for a closer look

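A single value stood apart from its group among the 80 sets of 8 libraries of 1 gene examined. Atg14 was at 13.1 CPM (232 reads) in the tdTom+ library of mouse 1, while the other 7 tdTom+ libraries lay between 15.98 and 17.75 CPM, a gap of 0.657 of the whole range on the log2 scale. Chance alone flags about 1 such set in 20, or 4 of 80, so that a single one is fewer than chance gives. Atg14 passed in neither direction with all 8 mice.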

How the results depend on the processing

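The counts of called genes among all genes, the 40 autophagy genes and the further pathway genes stayed within 1.5 times their value under every alternative run. With the mouse as a replicate block, 15 autophagy genes were higher and 11 lower, and 4494 and 4574 of all genes; Atg2b was the 1 autophagy gene whose call changed. DESeq2 gave 14 and 11, RLE scaling 14 and 10, upper-quartile scaling 12 and 11, no filter 14 and 10, at least 10 counts in every library 12 and 11, and an adjusted p under 0.05 gave 19 and 12. Leaving out 1 mouse gave 11 to 15 higher and 8 to 11 lower. Of the 25 called autophagy genes 19 kept their call under every alternative that gave a value and none turned its direction; the 6 that lost it in at least 1 were Ulk1, Atg10, Atg16l1, Gabarap, Sqstm1 and Calcoco1, and the cause was not tested. All 6 kept their call with a block on mouse. Upper-quartile scaling ended the calls of Atg10 (adjusted p = 0.01) and Gabarap (0.0106), and the minimum of 10 counts that of Gabarap (0.0112). Of genes that were not called, the log2 fold change of Wdr45 ran from -0.009 to 0.062 without 1 mouse, and the balance of Map1lc3a over Map1lc3b from -0.099 to 0.017, so that both turned direction around 0. The median log2 fold change of the 40 genes was 0.11 to 0.12 under the other scalings and the block. Summing Atg4a with Atg4a-ps was chosen after seeing the data and gave 1.07. With 2 to 25 reads a library in tdTom- cells, Atg9b is the value that depth limits most, and it could not be tested at a minimum of 10 counts.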

Other observations

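The genes of this section were picked after their values were seen. The subunits of AMPK, the energy-sensing kinase that activates ULK1, moved apart. Of the catalytic subunits, Prkaa1 was lower in tdTom+ cells, at 51.5 ± 2.52 against 77.7 ± 7.44 CPM (SD, n = 8; log2 fold change -0.59 ± 0.06 standard error, adjusted p = 1.52e-08), and Prkaa2 was higher, at 185 ± 24.3 against 114 ± 10.8 CPM (0.70 ± 0.08, adjusted p = 1.51e-07). Scaled by length, Prkaa2 stood at 23.2 ± 3.05 and Prkaa1 at 11.1 ± 0.54 CPM per kb in tdTom+ cells, while in tdTom- cells they stood at 14.3 ± 1.35 and 16.7 ± 1.60. Of the regulatory subunits, Prkab1 (-0.59 ± 0.05, adjusted p = 2.91e-09) and Prkag2 (-0.71 ± 0.06, adjusted p = 5.2e-09) were lower and Prkag1 was higher (0.28 ± 0.05, adjusted p = 4.04e-05). Each of these 5 moved the same way in 8 of 8 mice, with no overlap between the gates.

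Of the 7 tested transcription factors beside Tfeb and Tfe3, of which 3 were higher and 3 lower, the falls in Foxo3 and Nfe2l2 were the larger ones. Foxo3 went from 123 ± 14.4 to 50.6 ± 4.22 CPM (-1.28 ± 0.07, adjusted p = 3.22e-12) and Nfe2l2, the antioxidant factor that p62 can activate by binding its inhibitor, from 219 ± 9.60 to 119 ± 8.56 CPM (-0.88 ± 0.05, adjusted p = 8.12e-12). Among the ER-phagy genes, Sec62 rose from 60.1 ± 3.56 to 130 ± 12.5 CPM (1.12 ± 0.06, adjusted p = 1.89e-12), Ccpg1 from 3.20 ± 0.88 to 6.80 ± 0.99 CPM (1.09 ± 0.15, adjusted p = 1.73e-06) and Ufl1, which acts with Cdk5rap3 in UFMylation, by 0.84 ± 0.08 (adjusted p = 8.5e-09).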
